A study of Drosophila melanogaster with 4 samples.

Results

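Of the 1761 transcripts in the deposited comparison of kdm5 mutant and w1118 fly intestines, 30 were nearly absent in one genotype and present in the other. They were chosen by their TPM values in this comparison, where TPM is an estimate of transcript abundance corrected for length: both libraries of one genotype had to lie below 0.1 TPM and both libraries of the other at 0.3 TPM or more. Transcripts of Gdh, Acsl, Gclc, Gli, Fer1HCH and the RpL ribosomal protein genes were left out, which removed 25 listed transcripts, 2 of which (both of Gdh) met the limits. Of the remaining 1736 transcripts, 17 were higher in the mutant (0.979%) and 13 were lower in the mutant (0.749%). Since these values made the choice, they are given as a description, with no test and no count read as a result against those percentages.

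The mutant flies carried the kdm5 alleles k6801 and 10424, and the flies set against them were w1118, a white-eyed laboratory strain; each genotype gave 2 samples of 30 dissected intestines from females aged 3 to 5 days. The labels do not say what kind of lesion either allele is. The labels do not say whether the samples came from separate crosses, nor whether the mutant was crossed into the w1118 background, so kdm5 itself and other differences between the strains cannot be told apart. The labels name the whole animal as source in one field and the intestine in another. Markers of the excretory (Malpighian) tubules (5 of 9) and of visceral muscle (2 of 7) were listed, in both directions. Of the tubule markers, Oatp58Db, Oatp58Dc and ZnT35C were higher in the mutant, and Irk1 and salt were lower. Of the muscle markers, Act57B was lower in the mutant and an Mhc isoform was higher. These counts do not measure how much of either tissue was present. No ovary marker was listed, but only 6 of the 8 have their symbol in the annotation. Only transcripts with a p below 0.05 were listed, so unlisted markers may be present at any level. Of the 7 gut and enterocyte markers, 6 have their symbol in the annotation and 4 were listed: Jon99Fi, Jon99Fii, Myo31DF and nub. Their summed values were 2800 and 2510 TPM in kdm5 mutant libraries, against 22500 and 21000 TPM in w1118 libraries. Nearly all of that sum was Jon99Fi and Jon99Fii, digestive proteases. Myo31DF stood at 31 and 40 TPM in kdm5 mutant libraries, against 60 and 50.4 TPM in w1118 libraries, while nub went the other way, with 1.16 and 2.14 TPM in kdm5 mutants, against 0.502 and 0.551 TPM in w1118. The part of these differences in the values given here was not tested.

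Kdm5, also known as lid in flies, is a histone demethylase that erases the methyl mark on lysine 4 of histone H3, which is found at active gene starts. A fly gene is commonly read into several mRNAs, called transcripts or isoforms, that differ in where they start, which exons they join and where they end, and often encode the same protein. Reads from stretches that isoforms share are divided among them by an estimate, so a transcript can be listed near 0 while its gene is still expressed through another. In bulk tissue, fewer cells of a type and less RNA per cell cannot be told apart.

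The table lists only transcripts to which the authors gave a p below 0.05, so an isoform that is not listed may be present at any level. TPM keeps no record of sequencing depth, and the depth of each library is unknown. Values of exactly 0 occurred in w1118 replicate 1 and in none of the other 3 libraries: 25 of all listed transcripts stood at 0 there, and 10 of the 17 transcripts higher in the mutant were among them. In the other libraries the near-absent values were small positive numbers, down to 7.02e-11 TPM. Without w1118 replicate 1 the limits took 36 transcripts, and these include all 30, as fewer libraries can only widen the choice.

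The mutated gene was itself among the 30. Its single listed isoform, Kdm5-RE (FBtr0307071; minus strand of 2L, 5989463 to 5999501, assembly BDGP6.54), stood at 0.0768 and 0.0361 TPM in kdm5 mutant libraries and at 1.43 and 0.639 TPM in w1118 libraries. The mutant was low in this transcript of its mutated gene, and the gap between the groups is one that the choice of transcripts requires. The strain labels name the alleles and give no direction for Kdm5 RNA. The sample titles call the mutant KD, which was not taken as a direction. The annotation holds 6 Kdm5 transcripts, of which the other 5 were not listed, and all 5 encode the same protein-coding stretch as Kdm5-RE. Kdm5-RE has no exonic base of its own; it ends 63 bases before its closest relative, Kdm5-RF, at a point where no other annotated Kdm5 transcript ends. The values therefore describe this isoform and not the whole gene.

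The white gene w showed the reverse pattern. It encodes a membrane transporter subunit that carries eye pigment precursors, has 1 annotated transcript (w-RA, FBtr0070490; X, 2790599 to 2796466), and is mutated in w1118. In the mutant libraries w-RA stood at 8.82 and 13.4 TPM, against 0 and 0.013 TPM in w1118 libraries. A shortened w gene is a marker in many fly transgenes; the labels do not say whether the kdm5 alleles carry one. For w-RA, kdm5 and the w allele of each strain cannot be told apart.

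**Figure D1:**
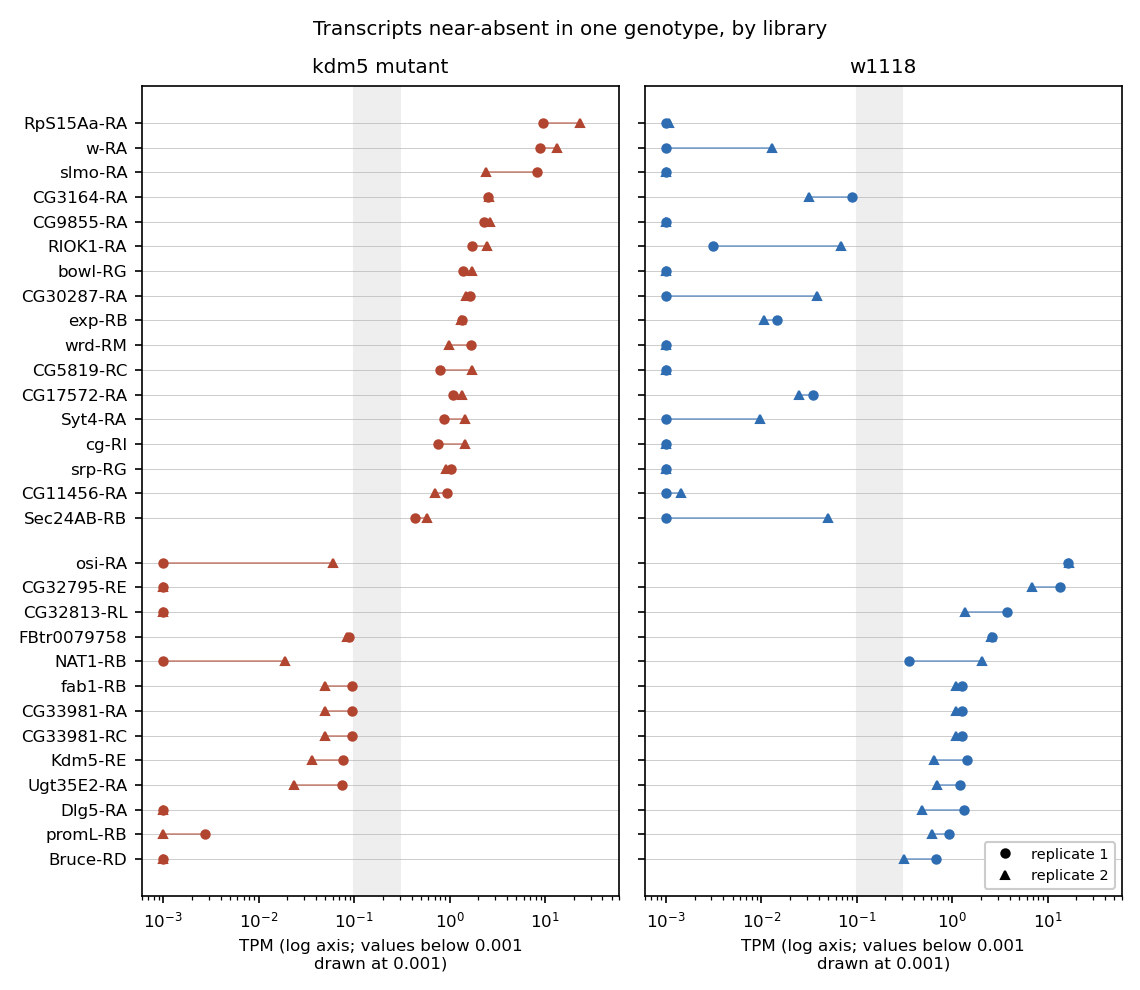
TPM of the 30 transcripts in each library, on a log axis, with the kdm5 mutant in the left panel and w1118 in the right panel. Circles are replicate 1, triangles replicate 2 and the line joins them; the grey band marks the gap between 0.1 and 0.3 TPM that the choice imposed, and values below 0.001 TPM are drawn at 0.001. The upper 17 transcripts were near-absent in w1118 and the lower 13 in kdm5 mutants, and in the genotype that had them they ran from 0.311 to 23 TPM.

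For 5 of the 30 transcripts the annotation gives their gene no other isoform, so the value is that of the whole annotated gene. Among matched transcripts, such genes gave 23.5% of those higher in the mutant, beside 44.5% of all listed transcripts higher there. Of those lower in the mutant they gave 8.33%, beside 20.6% of all listed ones, and these shares were not tested. Besides w, 3 of the 5 were higher in the mutant. CG30287-RA (FBtr0071695; 2R, 21536894 to 21538015) stood at 1.63 and 1.5 TPM in kdm5 mutant libraries and at 0 and 0.0385 TPM in w1118 libraries. CG17572-RA (FBtr0081173; 2L, 19071131 to 19074149) had 1.09 and 1.35 TPM in kdm5 mutants, against 0.0348 and 0.0249 TPM in w1118. Syt4, a synaptotagmin that acts in calcium-dependent vesicle release and is known from nerve terminals, had 0.879 and 1.46 TPM in kdm5 mutants (FBtr0081578; 3R, 7266065 to 7270809), against 0 and 0.00959 TPM in w1118. Of 4 neuron markers 1 was listed, Syt1, at 1.63 and 1.76 TPM in kdm5 mutant libraries and 0.846 and 0.812 TPM in w1118 libraries; the part of neurons in the Syt4 values was not tested. Of 6 markers of enteroendocrine cells, the hormone-secreting cells of the gut, 3 were listed, with summed values of 18.7 and 26.4 TPM in kdm5 mutant libraries, against 49.2 and 39.5 TPM in w1118 libraries, the reverse of Syt4.

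The fifth single-isoform gene lay on the other side. Ugt35E2, a UDP-glycosyltransferase of the enzyme family that attaches sugars to foreign and internal compounds, stood at 0.0751 and 0.0237 TPM in kdm5 mutant libraries and at 1.2 and 0.697 TPM in w1118 libraries (FBtr0082376; 3R, 11166177 to 11167981). In all 5 genes the replicates of the genotype with the transcript differed by 1.72 times or less.

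The other 24 matched transcripts belong to 23 genes with several annotated isoforms, and for 6 of these genes another isoform was also listed. RpS15Aa, a protein of the small ribosomal subunit, had the most abundant of the 17 transcripts higher in the mutant. RpS15Aa-RA (FBtr0073793; X, 13335773 to 13337638) stood at 9.64 and 23 TPM in kdm5 mutant libraries, against 0 and 0.00109 TPM in w1118 libraries. A second listed isoform, RpS15Aa-RC, carried most of the gene's listed abundance, at 125 and 170 TPM in kdm5 mutants and 82.1 and 74.2 TPM in w1118. Summed over both, RpS15Aa stood at 134 and 193 TPM in kdm5 mutants and at 82.1 and 74.2 TPM in w1118, so the gene was far from absent in w1118. RpS15Aa-RA differs from its closest isoform, RpS15Aa-RF, which was not listed, by 4 exonic bases, and all 5 annotated isoforms share the same coding bases.

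CG3164, an ABC transporter gene of the same subfamily as w, was the 1 gene of the 6 whose listed isoforms were all low in w1118 and present in the mutant. CG3164-RA (FBtr0078153; 2L, 122624 to 130791) averaged 2.57 ± 0.0638 TPM in kdm5 mutants and 0.0609 ± 0.0411 TPM in w1118 (SD, n = 2 each). CG3164-RC missed the lower limit in w1118, with 5.31 and 5.86 TPM in kdm5 mutant libraries and 0.371 and 0.144 TPM in w1118 libraries. Together they gave 7.84 and 8.47 TPM in kdm5 mutants, against 0.461 and 0.176 TPM in w1118. The isoforms share their coding bases and differ by 86 bases that only CG3164-RC keeps; the other 2 annotated isoforms were not listed. An antisense RNA gene, asRNA:CR44969, overlaps 852 bases of CG3164-RA on the other strand, and since no source used here states the strand setting, reads from the gene and its antisense partner may not have been told apart.

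In wrd and Sec24AB the near-absent isoform was higher in the mutant while the other listed isoform was lower there. wrd encodes a B' regulatory subunit of protein phosphatase 2A. Its isoform wrd-RM (FBtr0305033) stood at 1.66 and 0.98 TPM in kdm5 mutant libraries, against 1.48e-06 and 1.26e-09 TPM in w1118 libraries. The isoform wrd-RJ stood at 1.98 and 2.87 TPM in kdm5 mutants and at 4.52 and 4.41 TPM in w1118. Summed, the 2 listed of 14 annotated wrd isoforms gave 3.63 and 3.85 TPM in kdm5 mutants and 4.52 and 4.41 TPM in w1118, values that lie much closer together than those of wrd-RM alone.

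Sec24AB encodes a subunit of the COPII coat, which selects cargo for transport from the endoplasmic reticulum. Sec24AB-RB (FBtr0339406), the least abundant of the 17, had 0.432 and 0.579 TPM in kdm5 mutant libraries and 0 and 0.0497 TPM in w1118 libraries. Sec24AB-RA had 2.29 and 4.69 TPM in kdm5 mutants, against 9.02 and 5.41 TPM in w1118. The listed sum was 2.72 and 5.27 TPM in kdm5 mutants and 9.02 and 5.46 TPM in w1118, so the gene's listed abundance lay lower in the mutant although Sec24AB-RB was higher. Sec24AB-RB keeps 303 exonic bases that no other isoform of the gene has, outside the coding bases it shares with Sec24AB-RA; 478 of its bases overlap the antisense gene asRNA:CR45467.

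Among transcripts lower in the mutant, promL and CG33981 had further listed isoforms. promL is a prominin-like gene, of the family of membrane glycoproteins found on cell protrusions. promL-RB (FBtr0073118; 3L, 3114559 to 3127724) had 0.00275 and 0.000188 TPM in kdm5 mutant libraries, against 0.922 and 0.61 TPM in w1118 libraries. Both other listed isoforms were also lower in the mutant and by less, promL-RE with means of 1.93 ± 0.0161 TPM in kdm5 mutants and 3.12 ± 0.0569 TPM in w1118, and promL-RG with 0.904 ± 0.438 TPM in kdm5 mutants and 1.96 ± 0.0896 TPM in w1118 (SD, n = 2 each). The 3 listed of 7 annotated promL isoforms summed to 2.54 and 3.13 TPM in kdm5 mutants and 5.9 and 5.79 TPM in w1118, so promL too was expressed in both genotypes.

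CG33981-RA and CG33981-RC carried the same 4 values as fab1-RB, the listed isoform of an overlapping gene that encodes a lipid kinase of endosomes. All 3 transcripts stood at 0.095 and 0.0501 TPM in kdm5 mutant libraries and at 1.27 and 1.1 TPM in w1118 libraries. They cover the same span (2R, 17775123 to 17781930, minus strand) and the same 6035 exonic bases, and differ in which stretch is marked as coding: 5427 bases for fab1, 240 for CG33981-RA and 336 for CG33981-RC. They therefore stand for 1 measurement and not 3, although the counts, shares and medians given here keep them as 3. With identical transcripts counted once, 11 and not 13 were lower in the mutant. The other fab1 isoform and the other CG33981 isoform, which both run 1159 bases further downstream, were not listed.

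**Figure D2:**
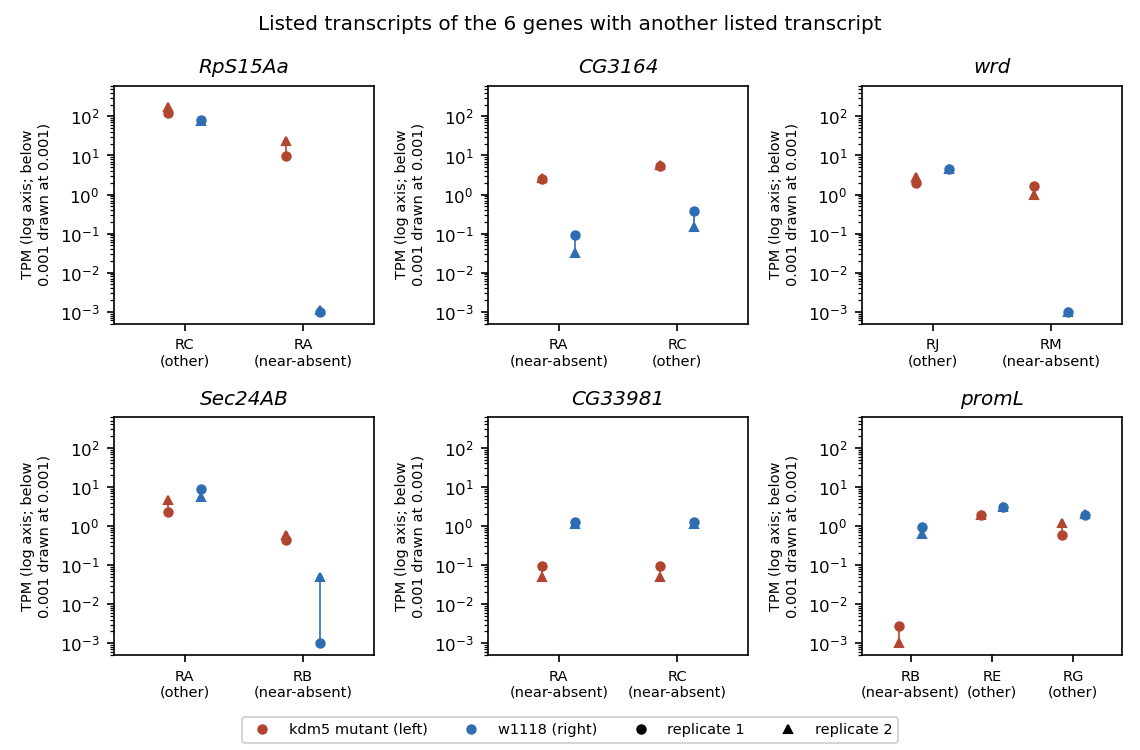
TPM on a log axis of every listed transcript of the 6 genes that had a near-absent transcript and another listed one, with the kdm5 mutant left and w1118 right in each pair. Circles are replicate 1, triangles replicate 2, and values below 0.001 TPM are drawn at 0.001. RpS15Aa-RC and wrd-RJ stood above 1 TPM in both genotypes beside an isoform near 0 in w1118, while both CG3164 isoforms stood low in w1118.

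**Figure D3:**
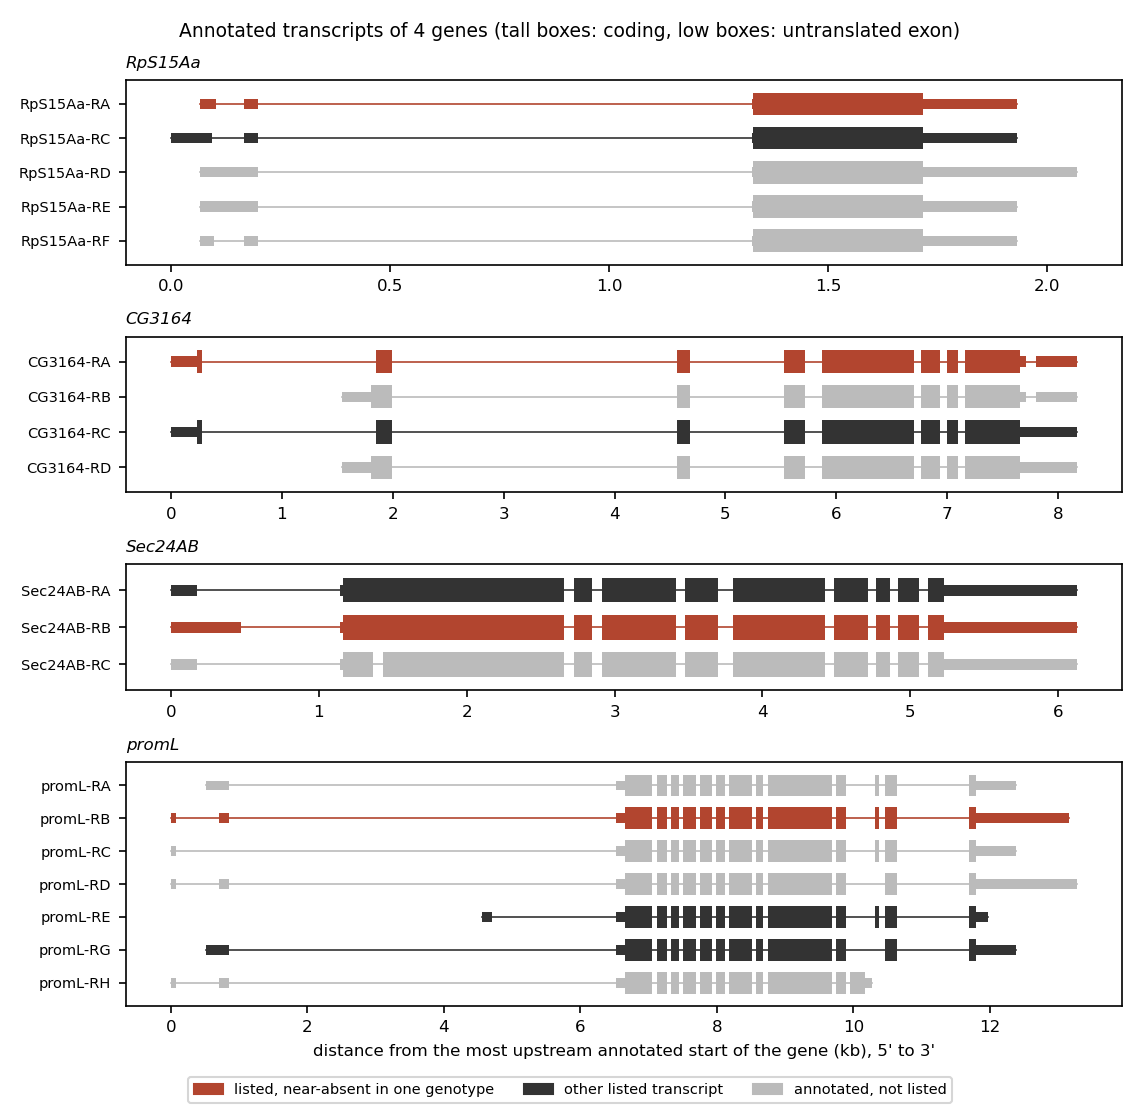
Annotated isoforms of RpS15Aa, CG3164, Sec24AB and promL, drawn to scale by distance in kb from the gene's most upstream start. Red marks the near-absent isoform, black another listed isoform and grey an isoform that was not listed; the red isoform of RpS15Aa has no exonic base of its own, and that of Sec24AB has 303, all in a longer first exon.

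The remaining 17 transcripts come from genes with several annotated isoforms of which no other was listed, and their whole-gene levels are unknown. Of these, 9 were higher in the mutant. The genes with a known regulatory role were bowl, cg and srp, each encoding a DNA-binding protein. bowl, an odd-skipped family zinc-finger gene needed for hindgut and proventriculus development, had 1.4 and 1.73 TPM of bowl-RG in kdm5 mutant libraries (FBtr0307028; 2L, 3771700 to 3784121), against 0 and 5.88e-05 TPM in w1118 libraries. bowl-RG is 1 of 7 annotated isoforms, all 7 with the same coding bases, and lacks 30 bases that its closest relative bowl-RC has. cg (combgap), a zinc-finger gene of limb patterning, had 0.759 and 1.46 TPM of cg-RI in kdm5 mutants (FBtr0290034), against 2.9e-10 and 0.000146 TPM in w1118; cg-RI is 1 of 11 annotated isoforms and differs from cg-RB by 3 bases.

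srp encodes a GATA transcription factor that acts in blood cells, fat body and the endoderm that gives rise to the midgut. srp-RG (FBtr0335424; 3R, 15986152 to 16004081) had 1.03 and 0.925 TPM in kdm5 mutant libraries, against 0 and 4.73e-10 TPM in w1118 libraries. It is 1 of 7 annotated isoforms and shares 938 bases with a long non-coding RNA gene on the same strand, lncRNA:CR44133. srp is also in the list of haemocyte markers, of which 2 of 7 genes were listed. The other listed marker, Hml, stood at 0.169 and 0.393 TPM in kdm5 mutants, against 0.957 and 0.557 TPM in w1118, the reverse of srp-RG. Of 9 fat body markers, Tsf1 was listed, at 29.8 and 38.2 TPM in kdm5 mutants and 9.24 and 10.1 TPM in w1118. The part of these cell types in the srp-RG values was not tested.

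Of the other transcripts higher in the mutant, slmo-RA was the most abundant. slmo (slowmo) encodes a mitochondrial protein needed for normal larval movement. slmo-RA (FBtr0079217; 2L, 6046654 to 6047934) stood at 8.21 and 2.4 TPM in kdm5 mutant libraries, 3.42 times apart, and at 4.23e-09 and 4.76e-09 TPM in w1118 libraries. All of its 1281 exonic bases lie within exons of another gene on the same strand, CG34179, and all 5 slmo isoforms have the same coding bases, so which gene the reads came from is uncertain. CG34179 itself was not listed.

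RIOK1, an atypical protein kinase in the maturation of the small ribosomal subunit, had 1.73 and 2.48 TPM of RIOK1-RA in kdm5 mutant libraries (FBtr0076134), against 0.00309 and 0.0682 TPM in w1118 libraries. RIOK1-RA lacks 72 bases that the 1 other isoform has, with the same coding bases. exp (expansion), a gene needed for the shape and size of airway tubes, had close replicates: exp-RB averaged 1.35 ± 0.0147 TPM in kdm5 mutants and 0.0126 ± 0.00286 TPM in w1118 (SD, n = 2 each; FBtr0088040). Its annotated relative exp-RA holds 1690 further exonic bases, and the isoforms differ in coding bases as well. No marker of the airways (trachea) was listed, and an unlisted marker may be present at any level.

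CG9855, CG5819 and CG11456 completed the 9. CG9855-RA (FBtr0078950) had 2.29 and 2.64 TPM in kdm5 mutant libraries, against 0 and 1.24e-06 TPM in w1118 libraries, with 1197 of its 1533 bases opposite the antisense gene asRNA:CR45999. CG5819-RC (FBtr0308774) had 0.793 and 1.74 TPM in kdm5 mutants, against 0 and 2.94e-06 TPM in w1118. CG11456-RA (FBtr0078264) had 0.936 and 0.697 TPM in kdm5 mutants, against 0 and 0.00144 TPM in w1118. The gap between the genotypes in these 3 is one that the choice requires. In CG5819-RC alone of the 3 the mutant replicates differed by more than 2 times (2.2).

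Of the 8 transcripts lower in the mutant with no other isoform listed, osi-RA and CG32795-RE were the most abundant, and Kdm5-RE and fab1-RB are described above. osi-RA (FBtr0080959; 2L, 16887125 to 16887966) stood at 5.09e-08 and 0.0609 TPM in kdm5 mutant libraries and at 16.2 and 16.8 TPM in w1118 libraries, the closest w1118 replicates of any of these 8 transcripts at 1.03 times apart. It has 2 annotated isoforms with the same coding bases, and osi-RB holds 16 bases more. CG32795-RE (FBtr0345318; X, 2782906 to 2789322) stood at 0.000224 and 7.89e-09 TPM in kdm5 mutants, against 13.5 and 6.82 TPM in w1118; it is 1 of 5 isoforms with the same coding bases and starts where no other does.

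NAT1, related to the translation initiation factor eIF4G, had 1.08e-06 and 0.0187 TPM of NAT1-RB in kdm5 mutant libraries (FBtr0087787), against 0.349 and 2.07 TPM in w1118 libraries, which lay 5.93 times apart, the widest gap among the 30 between replicates of the genotype that has the transcript. Dlg5, a scaffold protein of epithelial polarity, had 0.000585 and 5.48e-10 TPM of Dlg5-RA in kdm5 mutants (FBtr0080247), against 1.34 and 0.487 TPM in w1118. Bruce, a large protein of the inhibitor-of-apoptosis family that also carries a ubiquitin-conjugating domain, had 7.02e-11 and 1.76e-05 TPM of Bruce-RD in kdm5 mutants (FBtr0331683), against 0.669 and 0.311 TPM in w1118. Bruce-RD, 15399 bases long, differs from Bruce-RA by 3 bases.

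CG32813-RL (FBtr0342735) had 5.03e-09 and 5.71e-10 TPM in kdm5 mutant libraries and 3.77 and 1.37 TPM in w1118 libraries; it has exactly the exons of CG32813-RO, which was not listed, and the annotation gives the 2 different coding stretches. One transcript, FBtr0079758, matched no entry of the annotation and keeps its identifier. It averaged 0.0862 ± 0.0034 TPM in kdm5 mutants and 2.57 ± 0.0311 TPM in w1118 (SD, n = 2 each), close to the lower limit in the mutant.

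Across the 24 transcripts of genes with several isoforms, 21 had no exonic base that was absent from the other isoforms of the gene. Of those 21, 8 had a splice junction of their own, and 13 had neither. Of these 13, CG32813-RL, CG33981-RA and CG33981-RC have exactly the exons of another annotated isoform of their gene, and the other 10 differ from every other isoform only in a start, an end or the combination of shared parts. The closest annotated isoform differed by a median of 102 exonic bases, from 0 to 1690, and by under 100 bases in 12 of the 24. In 14 of the 24 it had the same coding bases, and in 4 of the 24 the closest isoform was itself listed. Transcripts without private bases made up 84.6% of those higher in the mutant (11 of 13), beside 59.3% of all listed transcripts higher in the mutant from genes with several isoforms. Of those lower in the mutant they made up 90.9% (10 of 11), beside 46.2% of all listed ones. The 10 count fab1-RB, CG33981-RA and CG33981-RC apart. Near-absent transcripts higher in the mutant had a median length of 2350 bases, beside 1450 over all listed higher there. For those lower in the mutant it was 5810 bases, beside 2330 over all listed ones. These shares and lengths are descriptions and were not tested.

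The level in the near-absent genotype was also set beside the number of isoforms. In the 5 genes with 1 annotated transcript, the higher of the near-absent values lay between 0.00959 and 0.0751 TPM, and none had both values under 0.001 TPM. Of the 24 transcripts from genes with several isoforms, 11 had both near-absent values under 0.001 TPM, among them cg-RI, srp-RG, wrd-RM and bowl-RG in w1118 and Bruce-RD, Dlg5-RA and CG32795-RE in the mutant. In the other 13 the higher near-absent value reached up to 0.095 TPM.

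**Figure D4:**
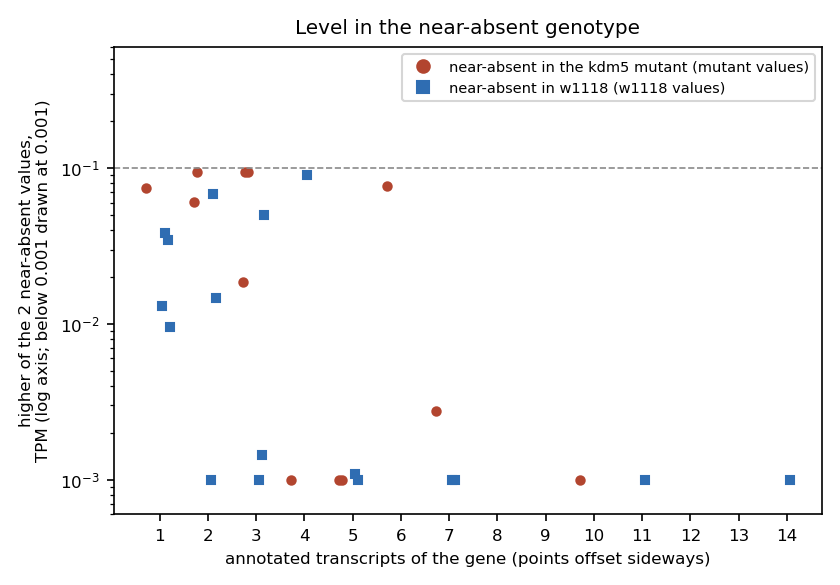
The higher of the near-absent TPM values of each of the 29 matched transcripts, on a log axis, against the number of annotated isoforms of its gene, with points offset sideways. Red circles are mutant values of transcripts lower in the mutant, blue squares are w1118 values of transcripts higher in the mutant, the dashed line is the limit of 0.1 TPM, and values below 0.001 TPM are drawn at 0.001. The 5 points at 1 isoform lie at 0.00959 TPM or more, and points at the bottom of the axis come from genes with several isoforms.

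Most of the 30 transcripts were of low abundance also where they were present. The mean in the mutant had a median of 1.35 TPM over the 17 transcripts higher there, from 0.506 to 16.3 TPM, beside a median of 18.6 TPM over all 1036 listed transcripts higher in the mutant. The mean in w1118 had a median of 1.18 TPM over the 13 transcripts lower in the mutant, from 0.49 to 16.5 TPM, beside 8.93 TPM over all 725 listed as lower. Of the 30, osi-RA and CG32795-RE lay above the median of the listed transcripts in their direction, with means of 16.5 and 10.2 TPM in w1118. In all, 23 of the 30 averaged at least 1 TPM in the genotype that had them. On log2(TPM + 0.1), which understates the change of low transcripts, the median difference, mutant minus w1118, was 3.78 for the 17 and -3.07 for the 13, beside 1.32 and -1.04 for all listed transcripts in each direction; the choice of members fixes the sign and much of the size.

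Replicates of the genotype with the transcript differed by a median of 1.34 times over the 17 and 1.72 times over the 13, beside 1.39 and 1.4 times over all listed transcripts in the same direction, and 8 of the 30 differed by over 2 times. Mutant replicate 2 was the higher one for 11 of the 17 (64.7%), beside 84.4% of all listed transcripts higher in the mutant. w1118 replicate 2 was the higher one for 2 of the 13, osi-RA and NAT1-RB (15.4%), beside 10.8% of all listed ones lower in the mutant. These lean the same way as the whole list.

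Of the transcripts higher in the mutant, 4 lay on 2L, 5 on 2R, 2 on 3L, 4 on 3R and 2 on the X. Of those lower in the mutant, 3 lay on 2L, 4 on 2R, 1 on 3L, 2 on 3R and 2 on the X, with FBtr0079758 unplaced. The chromosome arms of all listed transcripts were not counted, so these numbers are a description only. CG32795-RE begins 1277 bases downstream of the end of w on the X, on the same strand, with values in the reverse order to those of w-RA. They were the only 2 listed transcripts within 100 kb of w, a window with 29 annotated genes. slmo-RA lies 47.2 kb from Kdm5-RE, again with the reverse direction; within 100 kb of Kdm5, where 65 genes are annotated, the other listed transcripts were of CG9044 (0.467 and 0.662 TPM in kdm5 mutants, 2.51 and 1.64 TPM in w1118) and the translation factor eIF4A (9.91 and 19.9 TPM in kdm5 mutants, 53.7 and 45.7 TPM in w1118). The kdm5 alleles lie in Kdm5 and w1118 carries a mutated w, while the labels give no w allele for the mutant; the part of local sequence differences in these values was not tested.

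The limits left near neighbours on both sides. Closest inside the lower limit were CG3164-RA, with 0.09 TPM in w1118 replicate 1, and the shared fab1 and CG33981 value of 0.095 TPM in mutant replicate 1. Just outside it were p24-2, at 68.7 and 167 TPM in kdm5 mutants and 0.106 and 0.0745 TPM in w1118, and Mdr65, at 0.0964 and 0.1 TPM in kdm5 mutants and 0.691 and 0.507 TPM in w1118. Closest inside the upper limit were Bruce-RD, with 0.311 TPM in w1118 replicate 2, and Sec24AB-RB, with 0.432 TPM in mutant replicate 1. Just outside were a CG43897 isoform, at 0.283 and 0.754 TPM in kdm5 mutants and 0.032 and 1.73e-09 TPM in w1118, and a Tnpo-SR isoform, at 2.88e-10 and 2.82e-07 TPM in kdm5 mutants and 0.29 and 0.452 TPM in w1118. Of the transcripts considered with both w1118 values below 0.1 TPM, 8 of 25 had a mutant value too low to be included, and of those with both mutant values below 0.1 TPM, 3 of 16 had a w1118 value too low.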

How the data were processed

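Total RNA of dissected fly intestines was sequenced, with 2 samples per genotype. Per the file headers, the deposited table holds TPM for 4 libraries and a p-value for each transcript identifier. Cufflinks and DESeq are named in the submitters' processing notes. Not given in the sources used here are their roles and versions, the aligner, the build, the annotation and the strandedness. All of the authors' deposited p-values were below 0.05 and were not used further; whether they were adjusted is not stated. Because the table is a selected list and TPM holds no counts, no counting interval is given, and precision is shown by both library values or the SD of 2.

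Identifiers were matched to the FlyBase gene models of Ensembl release 115 (BDGP6.54), possibly not the one the authors used: 1741 of 1761 transcripts were found there, in 1526 genes. Positions are 1-based. Private exonic bases, private splice junctions and the closest isoform were computed within each gene with Python 3.11.15 and pandas 2.3.3; the selection by TPM limits was tested on simulated data. The members, lists and named genes were chosen with earlier results of these data known. By the rule for named genes, those named were Kdm5, w, the 12 most abundant members per direction, members with another listed isoform, single-isoform genes with a known symbol, and members within 100 kb of w or Kdm5; the few members outside it, and the transcripts just outside the limits, were named after their values were seen. No test was made, since the TPM values that chose the members are the comparison itself. Alternatives were other limits, scaling, counting by gene, pseudocounts and leaving out each library.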

Additional observations from a re-analysis of the deposited data

How the results depend on the processing

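The limits set the number of transcripts. With a lower limit of 0.2 TPM, 31 were higher and 23 lower in the mutant; with one of 0.05 TPM, 6 were lower, the lost ones including Kdm5-RE, osi-RA and Ugt35E2-RA. With an upper limit of 1 TPM, 10 were higher and 7 lower. Rescaling TPM so that the listed transcripts had the same sum in each library gave 21 higher and 7 lower in the mutant, adding 4 transcripts to the higher ones and losing Bruce-RD, NAT1-RB, FBtr0079758 and the fab1 and CG33981 transcripts; 24 of the 30 remained. The limits on 3 libraries gave 17 to 30 higher (the most without w1118 replicate 2) and 13 to 25 lower (the most without mutant replicate 2), and all 30 were among them each time, as the construction requires. Applied to listed TPM summed by gene, a setting chosen after seeing the data, the limits gave 13 genes higher and 10 lower. All of these have no other listed transcript, so their sum is the transcript's own value and had to pass. This setting therefore does not show near-absence of a whole gene. The 6 genes with another listed transcript, RpS15Aa, CG3164, wrd, Sec24AB, CG33981 and promL, no longer met the limits. CG33981 failed because its 2 transcripts with the same exons and values were added together.

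The median log2 difference followed the pseudocount: 1.21 and -1.02 with 1 TPM, 6.63 and -5.54 with 0.01 TPM. Rescaled, that of the transcripts higher in the mutant was 4.10, and it was 3.69 to 3.97 with 1 library left out. No paired analysis was possible because the results come from no test, the transcripts having been chosen on this contrast. Depth is unknown, and with n = 2 near-absence is not shown to be absence.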
